A study of Mus musculus with 12 samples.

Results

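The comparison described here is that of Tet2 knockout (KO) leukemic cells 4 h after transcription was blocked with the same cells at 0 h. It rests on 4 of the 12 RNA libraries of the series, 2 at 4 h and 2 at 0 h, taken by their genotype and time labels. The cells are NRAS/AE9a leukemic cells of the mouse, an acute myeloid leukemia (AML) line that, by its name, carries NRAS and the AML1-ETO9a fusion. They were grown in medium with the cytokines SCF, IL-3 and IL-6 and the selection drugs G418 and puromycin. The KO groups carry a Tet2 knockout, and KO cells had actinomycin D at 5 µg/ml for 4 h or 0 h, with further KO libraries at 8 h. Wild-type (WT) cells of the same line had the same drug for the same times, again with 2 libraries per group, and each genotype is given as a single line. Neither the making of the knockout nor separate cultures for the 2 libraries of a group are described in the labels. The p-values therefore cover the spread between these libraries alone, and that spread may be technical. The wider question of the series is what TET2, which oxidises 5-methylcytosine, does to mRNA in leukemic stem cells and their homing.

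Actinomycin D binds DNA and stops RNA polymerases, so that no new mRNA replaces what is degraded. Messages for transcription factors, cytokine signals and feedback inhibitors are known for short lives, many of them through AU-rich elements in the 3' untranslated region (UTR) that recruit the deadenylation and decapping machinery. Messages for ribosomal proteins, the respiratory chain and other constant parts of the cell are known for long lives. Splicing leaves exon junction complexes on coding sequences, and intron-poor messages are a known class of short-lived RNA. Values are TPM, the length-corrected share of a gene among the transcripts of its library. Each column sums to 1000000, no added RNA standard is named, and the sequencing depth is unknown, so TPM goes up for a message that outlasts the others. A share of RNA also cannot tell fewer cells of a type from less RNA per cell.

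The libraries carried the markers of their label. All 9 markers of myeloid progenitors or leukemic cells were at 1 TPM or more in the 4 KO libraries. Their summed level was 2669 and 2757 TPM at 4 h, against 3031 and 3018 TPM at 0 h. Of that sum Ctsg alone was 1517 and 1568 TPM at 4 h, against 1521 and 1571 TPM at 0 h. The mast cell and basophil markers, given below, summed to more than this set at both times. The defining T cell markers Cd3d, Cd3e and Cd3g and the B cell markers Pax5 and Ebf1 were at 0 in all 4. Summed over 9 T and NK cell markers the level was 18.3 and 20.4 TPM at 4 h, against 19.5 and 29.4 TPM at 0 h, with 1 marker, Nkg7, at 1 TPM or more in both libraries of each time. Summed over 6 B cell markers it was 0.30 and 0.77 TPM at 4 h, against 1.01 and 0.18 TPM at 0 h. Summed over 11 markers of stroma and endothelium it was 207.2 and 214.8 TPM at 4 h, against 205.4 and 203.5 TPM at 0 h, with Col1a2 and Pdgfra at 0 in all 4 and 2 markers at 1 TPM or more in both libraries at 4 h, against 3 at 0 h. The part of such cells in the changes was not tested. Between 9560 and 9595 genes had at least 1 TPM at 4 h, against 10747 to 10753 at 0 h. The 10 most abundant genes took 16.2% to 16.4% of TPM at 4 h and 13.4% at 0 h. Across genes, the 2 libraries of a group correlated with a Pearson r of 0.994 at both times, and the median gene differed between them by 0.10 at 4 h and 0.08 at 0 h on the log2(TPM + 1) scale.

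Short stretches of 3' UTR around an AU-rich pentamer, ATTTA, are shown for some of the most strongly lost messages. Each window was placed on the pentamer, so it cannot show what sets such messages apart. Windows of 29 bases are given for 8 of the genes that fell most and have at least 1 ATTTA in their 3' UTR. They run 5' to 3' on the mRNA strand, as DNA letters from GENCODE M21 transcripts on GRCm38 (mm10), with each ATTTA in capitals.
Cited2, chr10:17725598-17725626, plus strand: atacttgttaATTTAttctattttaattt
Myc, chr15:61990137-61990165, plus strand: acagatttgtATTTAattgtttttttaaa
Nfkbia, chr12:55489606-55489634, minus strand: accacgttttATTTAttgtgcttttgatt
Dusp2, chr2:127337994-127338022, plus strand: gcagaaattaATTTAattaattaATTTAc
Dusp5, chr19:53541980-53542008, plus strand: ctttggtgtgATTTAaaaaaaaaaatact
Cd69, chr6:129267931-129267959, minus strand: tagagttactATTTAttgccgaatgactg
Fli1, chr9:32423491-32423519, minus strand: tgagttaaatATTTAggttactggaacgg
Nrros, chr16:32142854-32142882, minus strand: catccgtgtgATTTAtcctcattgtcctg

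The pentamer occurred in the 3' UTR of 9 of the 14 most strongly lost messages with a coding transcript. That was about the same share as the 64.5% of all 10527 tested genes that have one. The pentamer was in 75.2% of the 1285 such genes that fell at least 4-fold, in 71.5% of the 375 that fell at least 4-fold relative to the median gene and in 42.5% of the 510 that rose. These 3 classes had median UTR lengths of 1219, 1049 and 330 nt, against 916 nt in all, and a longer UTR holds more of any motif. The 5 of the 14 without it were Irf2bp1, Slfn2, Arf6, Cebpb and Cebpa. No match says only that these letters are not in the annotated UTR. The longer AU-rich nonamer TTATTTATT, which contains ATTTA, was found in 1 of the 14, Nfkbia, and in 6.99% of all.

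Most genes had a lower TPM in KO cells after 4 h without transcription, and the losses ran far deeper than the gains. Of 11152 genes tested with limma, 8123 passed an adjusted p of 0.05 (72.8% of all), 7579 of them lower at 4 h (68% of all) and 544 higher (4.88%). The log2(TPM + 1) change had a median of -0.70, with the middle of the genes between -1.44 and -0.18 at the quartiles and 5% of genes below -2.52. A loss of at least 2-fold on that scale was seen in 4332 genes and of at least 4-fold in 1329, while 12 genes gained 2-fold. Since the median gene itself lost TPM, each change is also given relative to it, as the log2 change minus -0.70. When every library was divided by its median ratio to the typical gene, 7987 genes passed (71.6% of all), 4142 higher (37.1%) and 3845 lower (34.5%), around a median of 0.05. On that scaling "higher" means lost more slowly than the typical message.

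**Figure D1:**
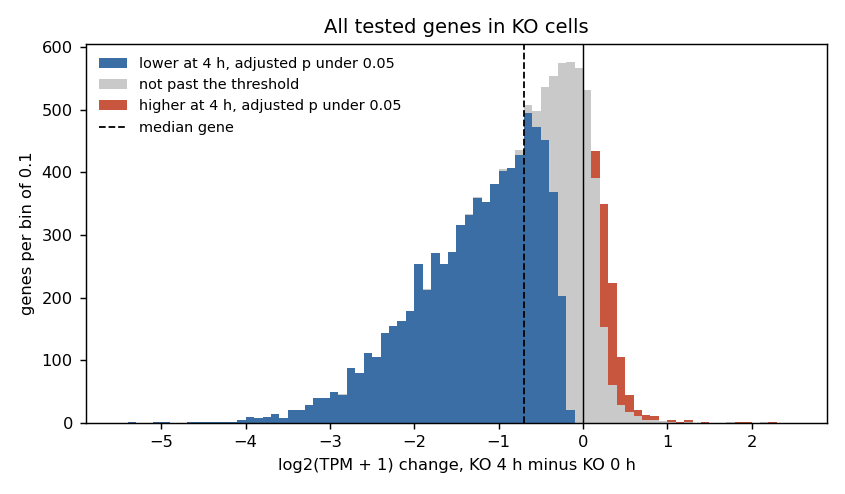
Distribution of the log2(TPM + 1) change of the 11152 tested genes, KO 4 h minus KO 0 h, in bins of 0.1, with genes past the threshold in blue (lower) and red (higher). The dashed line is the median gene at -0.70, and the tail of losses reaches beyond -5 while few genes pass 1 on the side of gains.

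Tet2 mRNA was present in the KO libraries and was lost like a typical message. It had 6.42 and 5.82 TPM in KO cells at 4 h, against 10.19 and 10.16 TPM in KO cells at 0 h, and the groups did not overlap. The log2 change was -0.65 ± 0.13 (SE, n = 2 each, adjusted p = 0.00050), or 0.05 relative to the median gene, and it became 0.16 after median-ratio scaling, where it no longer passed (adjusted p = 0.128). WT cells had 10.61 and 10.18 TPM of Tet2 at 4 h, against 13.05 and 16.03 TPM at 0 h. Since TPM is summed over the whole gene and the deleted part is not known here, this level is a weak check of the genotype.

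Of 3 further genes that the study's theme of homing and mRNA binding brings up, 1 was among the steeper losses. Cxcr4, the receptor for CXCL12 that holds blood progenitors in the marrow, had 4.97 and 5.58 TPM at 4 h, against 71.3 and 68.1 TPM at 0 h. That left 7.57% of its 0 h TPM and a log2 change of -3.50 ± 0.14 (adjusted p = 2.19e-09), or -2.79 relative to the median gene. Tspan13, a tetraspanin, had 10.55 and 9.04 TPM at 4 h, against 9.54 and 8.95 TPM at 0 h, so its libraries overlapped. Its log2 change of 0.07 ± 0.21 did not pass (adjusted p = 0.770), and it was 0.77 above the median gene. Ybx1, a Y-box protein that binds mRNA, had 1173 and 1205 TPM at 4 h, against 964 and 940.5 TPM at 0 h. Its gain of 0.32 ± 0.08 passed (adjusted p = 0.00403) and stood 1.02 above the median gene.

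Of the 14 falls described 6 were of genes that act on transcription. Cited2, a coactivator that binds CBP and p300, had 7.11 and 7.18 TPM at 4 h, against 330.9 and 316.6 TPM at 0 h, a log2 change of -5.32 ± 0.10 with 2.21% of the TPM left. Myc, the growth-promoting transcription factor, had 2.75 and 2.75 TPM at 4 h, against 121.2 and 121.4 TPM at 0 h (-5.03 ± 0.13), with 2.27% left. Both had been abundant at 0 h, and the 2 libraries at each time lay close together. Cebpb had 11.41 and 11.08 TPM at 4 h, against 201.1 and 209.1 TPM at 0 h (-4.07 ± 0.15). Cebpa, like Cebpb a C/EBP factor of myeloid differentiation, had 3.35 and 3.40 TPM at 4 h, against 72.7 and 69.3 TPM at 0 h (-4.04 ± 0.12). Fli1, an ETS factor of blood stem and megakaryocytic cells, had 1.36 and 1.47 TPM at 4 h, against 41.99 and 37.56 TPM at 0 h (-4.08 ± 0.22). For these 3 factors of blood cell identity 3.56% to 5.48% of the TPM was left. Irf2bp1, a corepressor that binds IRF2, had 0.30 and 0.24 TPM at 4 h, against 24.69 and 23.24 TPM at 0 h (-4.30 ± 0.16). Levels this low at 4 h are compressed by the added 1 TPM, so the log2 change understates the loss of Irf2bp1, of which 1.13% was left.

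A further 3 falls were of feedback inhibitors of signalling. Nfkbia, which encodes the NF-κB inhibitor IκBα, had 1.28 and 0.80 TPM at 4 h, against 60.95 and 59.88 TPM at 0 h, a log2 change of -4.92 ± 0.13. Dusp2, a nuclear phosphatase of MAP kinases, had 0.70 and 1.51 TPM at 4 h, against 55.03 and 48.41 TPM at 0 h (-4.67 ± 0.28). Dusp5, a nuclear phosphatase of ERK, had 0.41 and 0.60 TPM at 4 h, against 35.30 and 34.74 TPM at 0 h (-4.58 ± 0.23). Of these 3 messages 1.44% to 2.14% of the TPM was left.

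The other large falls were of varied function. Cd69, a lectin of early activated leukocytes, had 3.60 and 3.10 TPM at 4 h, against 94.2 and 88.7 TPM at 0 h (-4.41 ± 0.12). Slfn2, a Schlafen gene of immune cell quiescence, had 8.90 and 9.67 TPM at 4 h, against 190.6 and 189.9 TPM at 0 h (-4.22 ± 0.12). Arf6, a small GTPase of membrane traffic, had 4.49 and 5.37 TPM at 4 h, against 104.6 and 102.9 TPM at 0 h (-4.15 ± 0.12). No overlap of the groups was a condition for naming the falls and rises, so their separation is no further support. Nrros, a myeloid protein that tethers latent TGF-β, had 7.70 and 7.53 TPM at 4 h, against 143.7 and 142.5 TPM at 0 h (-4.06 ± 0.09). Gas5 was the exception among these falls in being a noncoding host of snoRNAs, with 1.26 and 1.94 TPM at 4 h, against 50.30 and 51.93 TPM at 0 h (-4.34 ± 0.18). The adjusted p of the 14 falls described lay between 1.37e-11 and 2.37e-08, and relative to the median gene their changes were -3.34 to -4.62.

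Gains were small beside the losses, and several rested on few TPM. Dpm1, the catalytic subunit of dolichol-phosphate mannose synthase, had 14.98 and 20.77 TPM at 4 h, against 7.75 and 7.72 TPM at 0 h (1.09 ± 0.15, adjusted p = 2.36e-05). It was the only 1 of the 15 largest named gains to double. Dpm3, the small subunit that stabilises Dpm1, had 94.1 and 106.4 TPM at 4 h, against 63.7 and 70.4 TPM at 0 h (0.57 ± 0.18), with a call that was lost without KO 4 h replicate 2 or KO 0 h replicate 1 (adjusted p up to 0.0812). Atp5h, a subunit of the ATP synthase, had 687.1 and 755.4 TPM at 4 h, against 486.9 and 485.6 TPM at 0 h (0.57 ± 0.06). Uqcrq, a subunit of respiratory complex III, had 61.4 and 63.0 TPM at 4 h, against 37.5 and 45.1 TPM at 0 h (0.59 ± 0.11). That the libraries at 4 h stood clear of those at 0 h was a condition for naming these gains.

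Ctla2a, a cathepsin inhibitor, had 403.8 and 371.5 TPM at 4 h, against 257.3 and 252.3 TPM at 0 h (0.60 ± 0.09). Ifitm1, an interferon-induced membrane protein, had 334.9 and 346.5 TPM at 4 h, against 226.9 and 215.1 TPM at 0 h (0.62 ± 0.11). Retnlg, a resistin-like secreted protein of granulocytes, had 58.8 and 58.3 TPM at 4 h, against 38.3 and 40.3 TPM at 0 h (0.56 ± 0.08). In these 3 messages, too, the separation of the groups was a condition of being named. Igfbp7, a secreted binder of insulin-like growth factors, had 35.2 and 31.1 TPM at 4 h, against 18.4 and 18.6 TPM at 0 h (0.81 ± 0.13). Ltc4s, the leukotriene C4 synthase, had 44.5 and 34.1 TPM at 4 h, against 18.9 and 24.4 TPM at 0 h (0.83 ± 0.21). H2-Oa, a chain of the class II antigen-loading regulator DO, had 13.95 and 12.25 TPM at 4 h, against 8.52 and 5.51 TPM at 0 h (0.84 ± 0.16). The platelet chemokines Pf4 and Ppbp are given with the marker genes below.

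Of the 15 named gains 4 were uncertain. Cox4i2, a lung-type subunit of cytochrome oxidase, had 11.79 and 12.87 TPM at 4 h, against 8.96 and 4.35 TPM at 0 h (0.87 ± 0.33), and Crip1, a LIM-domain protein, had 182.4 and 176.8 TPM at 4 h, against 103.5 and 135.7 TPM at 0 h (0.60 ± 0.22). The histone gene Hist1h2ae had 23.66 and 13.79 TPM at 4 h, against 10.92 and 10.35 TPM at 0 h (0.72 ± 0.25), and it is 1 of many near-identical copies among which reads may be split. Each of these 3 calls was lost in 3 of the 4 fits that left out a KO library (adjusted p up to 0.300 for Cox4i2, 0.190 for Crip1 and 0.259 for Hist1h2ae), and Dpm3, above, was the fourth.

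**Figure D2:**
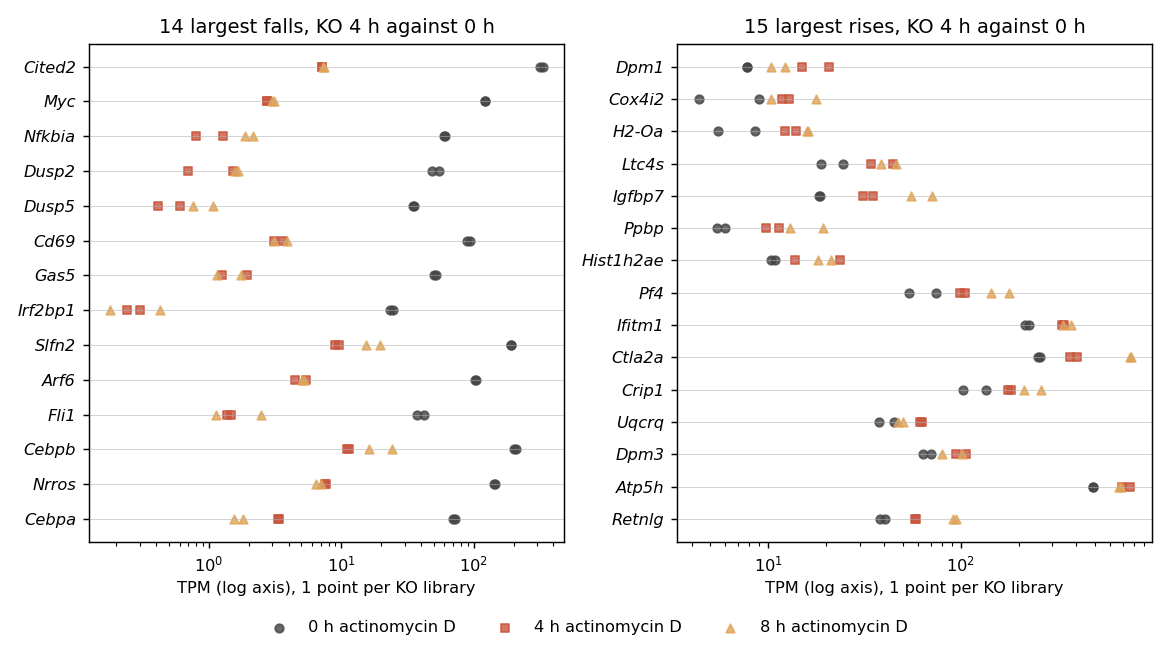
TPM on a log axis of the 14 largest falls (left) and the 15 largest rises (right) between KO 0 h and KO 4 h, with 1 point per KO library at 0, 4 and 8 h of actinomycin D. The 0 h points of the falls lie far to the right of the 4 h points, while most 8 h points lie close to those at 4 h. In the rises the 4 h points lie to the right of the 0 h points, and the group means differ by less than a doubling, except in Dpm1.

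What followed between 4 and 8 h in KO cells differed among these genes. That comparison shares the 4 h libraries, so its values are only set beside the first. Of all genes 52.1% passed in it, 8.97% higher and 43.1% lower at 8 h, and the median gene changed by -0.28, after -0.70 up to 4 h. Cebpa had 72.7 and 69.3 TPM at 0 h, 3.35 and 3.40 TPM at 4 h and 1.80 and 1.54 TPM at 8 h, a further log2 change of -0.71 ± 0.12 (adjusted p = 0.00025). Slfn2, in contrast, had 8.90 and 9.67 TPM at 4 h and 15.2 and 19.7 TPM at 8 h (0.83 ± 0.12, adjusted p = 0.00011), and Cebpb and Nfkbia likewise gained 0.76 and 0.57. In Cited2, Myc and Cd69 the 8 h change was 0.03 to 0.11 and did not pass. Igfbp7 and Ctla2a went on gaining, by 0.90 and 0.97, while Dpm1 lost 0.60 (adjusted p = 0.00436).

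Gene lists extended these single genes to whole pathways, and their counts are read against the 68% of all genes that were lower and the 4.88% that were higher. Counts after median-ratio scaling are read against the 34.5% lower and 37.1% higher of all genes on that scaling. The lists were chosen with earlier results of these data known, so their counts are descriptions. Signal-responsive regulators stood at the bottom. Of 31 immediate early transcription factors tested 29 were lower and 0 higher, with a median of -1.88, or 1.18 below the median gene. Junb, an AP-1 subunit, had 17.8 and 18.8 TPM at 4 h, against 146.5 and 148.6 TPM at 0 h (-2.94 ± 0.08). Id1 and Id2, inhibitors of bHLH factors, changed by -3.32 ± 0.10 and -3.11 ± 0.12. The 2 that did not pass, Maff and Fosb, had log2 changes of -0.21 and -0.15 and were near 2 TPM at both times.

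All 13 tested phosphatases and Sprouty genes that feed back on ERK were lower (median -2.42), as were all 14 SOCS and PIM genes of JAK-STAT feedback (median -2.02). Dusp6, a cytoplasmic ERK phosphatase, had 3.88 and 4.16 TPM at 4 h, against 78.8 and 78.6 TPM at 0 h (-3.99 ± 0.16). Cish, an inhibitor of cytokine receptors that signal through STAT5, had 5.56 and 5.51 TPM at 4 h, against 58.6 and 58.5 TPM at 0 h (-3.19 ± 0.11). Pim1, a kinase induced by the same receptors, changed by -2.39 ± 0.10. Of 20 NF-κB subunits and feedback inhibitors 19 were lower (median -1.54), among them Birc3, an inhibitor of apoptosis, at -2.06 ± 0.13 and the subunit Rela at -1.88 ± 0.13. After median-ratio scaling 26 of 31 immediate early, 12 of 13 ERK, 13 of 14 JAK-STAT and 13 of 20 NF-κB genes were still lower, and 1, 0, 0 and 1 were higher. Of all genes 34.5% were lower and 37.1% higher there.

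Factors that define blood cells were lost with them. Of 42 blood cell transcription factors 41 were lower and 0 higher, with a median of -1.99, and 32 were lower and 3 higher after scaling to the typical gene. Nfe2, a bZIP factor of megakaryocytic and erythroid genes, had 13.07 and 11.74 TPM at 4 h, against 146.6 and 142.4 TPM at 0 h (-3.44 ± 0.12). Lyl1, a bHLH factor of progenitors, changed by -2.70 ± 0.10. Stem and progenitor genes had 17 of 22 lower and 2 higher (median -1.24). Among them Gata2 had 4.26 and 3.36 TPM at 4 h, against 59.4 and 61.9 TPM at 0 h (-3.69 ± 0.15), and Tal1 changed by -3.07 ± 0.12. The 2 higher calls fell to 1 when any 1 KO library was left out. All 11 tested members of the MYC network were lower (median -1.60), with the MYC antagonist Mxd1 at -2.44 ± 0.14. In the BCL2 family 13 of 17 were lower around a median of -0.74, close to that of all genes. The survival factors Mcl1, with 20.9 and 22.5 TPM at 4 h against 171.2 and 171.3 TPM at 0 h (-2.92 ± 0.10), and Bcl2l1 (-2.64 ± 0.13) fell by more.

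Large families of nuclear regulators fell almost as a whole. Of 266 Zfp zinc finger genes 259 were lower and 0 higher (median -1.54), and 216 were lower and 7 higher after scaling. Zfp217 had 6.39 and 5.91 TPM at 4 h, against 44.4 and 41.6 TPM at 0 h (-2.62 ± 0.11). All 17 genes of the m6A machinery, which writes and reads N6-methyladenosine in mRNA, were lower (median -1.71). The m6A readers Ythdf2 (-3.13 ± 0.13) and Ythdf1 (-3.19 ± 0.13) were among them, with 4.19 and 3.64 TPM of Ythdf2 at 4 h against 42.8 and 41.4 TPM at 0 h. The writers, readers and TET enzymes of 5-methylcytosine in RNA were more split, with 15 of 19 lower and 2 higher (median -1.03). After scaling 6 of them were lower and 5 higher, against 34.5% and 37.1% of all genes. Tet3, a TET dioxygenase, had 3.24 and 3.35 TPM at 4 h, against 18.6 and 18.9 TPM at 0 h (-2.20 ± 0.12), and Nop2, an rRNA methyltransferase, changed by -2.20 ± 0.15. Without KO 4 h replicate 1 or KO 0 h replicate 1, 1 of the 2 higher calls was left.

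Messages of the machinery that degrades mRNA were lower as well. All 19 AU-rich element and Pumilio binding proteins were lower (median -1.22). Zfp36l2, which binds AU-rich elements and recruits deadenylases, had 17.99 and 18.18 TPM at 4 h, against 229.5 and 231.5 TPM at 0 h (-3.60 ± 0.10). The Pumilio protein Pum2, which binds UGUA motifs in 3' UTRs, changed by -2.43 ± 0.10. Of 56 genes of general mRNA decay 48 were lower and 1 higher (median -1.03), with Btg1, which activates deadenylation, at -2.48 ± 0.11 and the CCR4-NOT subunit Cnot2 at -2.27 ± 0.12. After scaling to the typical gene the split of the decay genes was 23 lower and 22 higher. On the deposited TPM their median was -0.33 relative to the median gene, and 34 of the 56 lay below it.

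Genes of the cell cycle were lost unevenly. Of 34 mitosis genes 31 were lower and 1 higher (median -1.15). Ccnf, cyclin F, had 5.06 and 4.61 TPM at 4 h, against 63.4 and 62.0 TPM at 0 h (-3.45 ± 0.12), and Plk1, the polo-like kinase of mitosis, changed by -2.72 ± 0.17. Of 45 DNA replication genes 37 were lower and 0 higher around a median of -0.57, and after scaling their direction turned, with 9 lower and 25 higher. The licensing factor Cdt1 was among those lower on both scales, at -2.15 ± 0.11. Cyclins and inhibitors of G1 had 20 of 23 lower and 1 higher (median -1.19), with the phosphatase Cdc25a at -2.69 ± 0.15. Of 29 p53 targets 26 were lower (median -1.31), among them Sesn2, a stress-induced inhibitor of mTORC1 signalling, with 0.88 and 1.17 TPM at 4 h against 27.2 and 24.6 TPM at 0 h (-3.73 ± 0.13). The single higher calls of the mitosis and G1 lists were lost without KO 4 h replicate 1, KO 4 h replicate 2 or KO 0 h replicate 1, that of mitosis also without KO 0 h replicate 2.

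**Figure D3:**
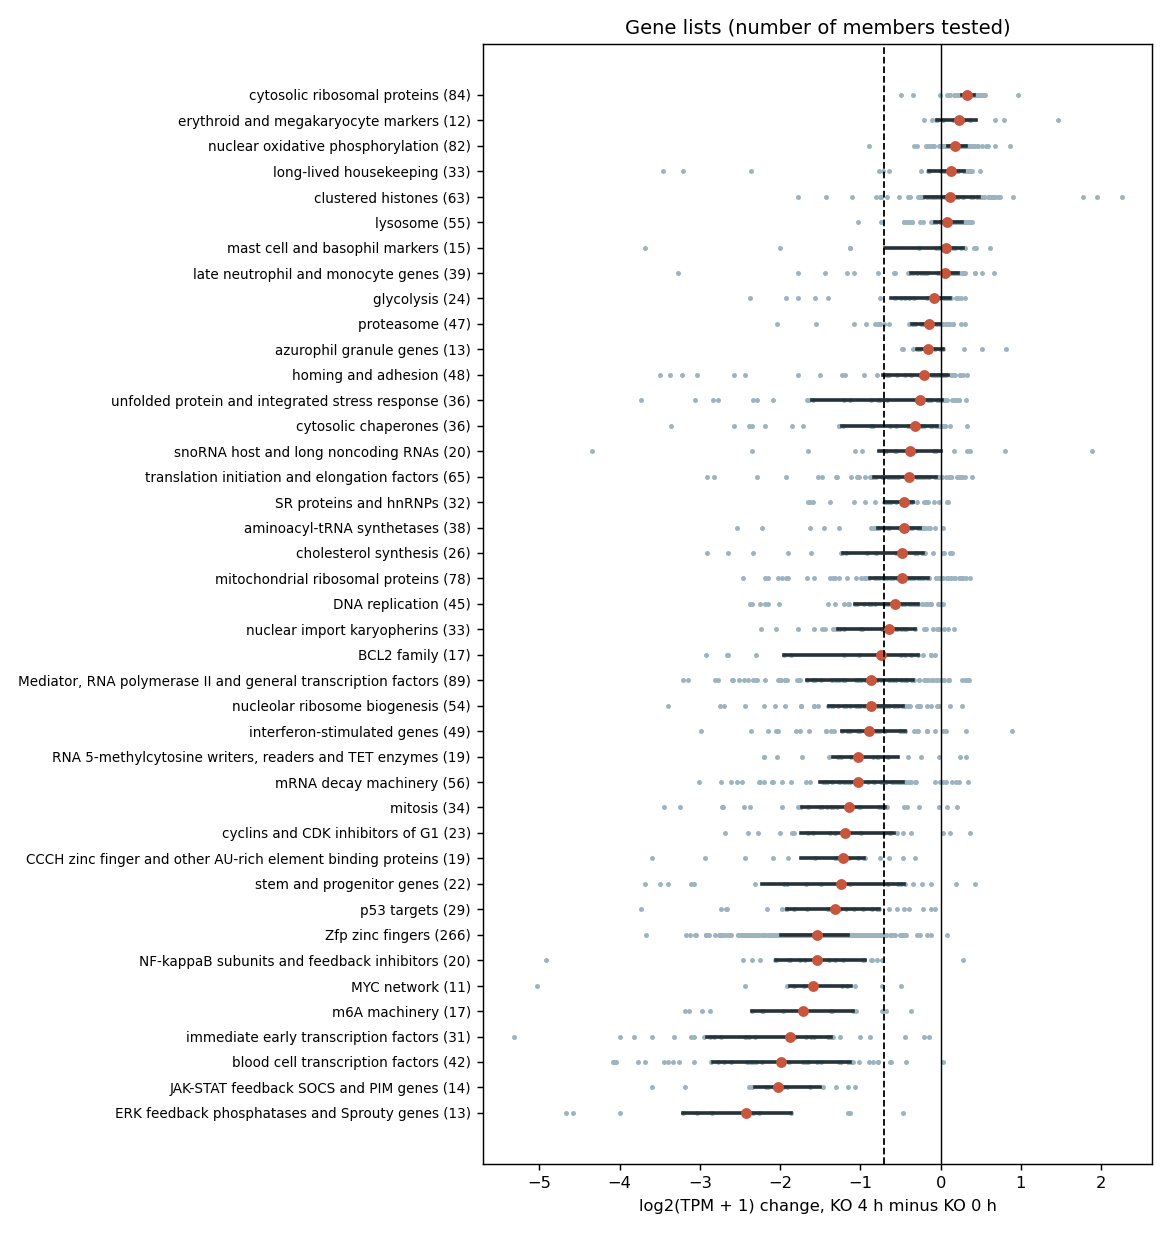
Log2(TPM + 1) change of the tested members of each gene list with at least 5 of them, KO 4 h minus KO 0 h, as grey points, with the median in red and the quartiles as a dark bar. Lists run from ribosomal proteins, at a median of 0.33, down to the ERK feedback genes at -2.42. The solid line is 0 and the dashed line the median gene at -0.70.

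The cytosolic ribosome was at the other end. Of 84 ribosomal protein genes 71 were higher at 4 h, against 4.88% of all genes, and 1 was lower, with a median of 0.33, or 1.03 above the median gene. Rps12 had 10564 and 10769 TPM at 4 h, against 7774 and 7341 TPM at 0 h (0.50 ± 0.06). Rpsa, the laminin receptor of the small subunit, had 3085 and 3113 TPM at 4 h, against 2209 and 2199 TPM at 0 h (0.49 ± 0.06). Ribosomal proteins together took 26.5% and 26.7% of TPM at 4 h, against 20.66% and 20.98% at 0 h. Many of these genes have processed pseudogenes with which reads may be shared. The count stayed at 61 to 66 when 1 KO library was left out, and the 1 lower call became 2 without KO 0 h replicate 2.

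Nuclear genes of oxidative phosphorylation had 33 of 82 higher and 3 lower (median 0.18), and after scaling to the typical gene 78 were higher and 0 lower. Atp5j2, an ATP synthase subunit, had 1216 and 1253 TPM at 4 h, against 950.3 and 954.1 TPM at 0 h (0.37 ± 0.06), and Cox6b1, a subunit of cytochrome oxidase, changed by 0.37 ± 0.07. The number higher was 21 without KO 4 h replicate 1, 23 without KO 4 h replicate 2, 20 without KO 0 h replicate 1 and 28 without KO 0 h replicate 2. The mitochondrial ribosome did not share this: 51 of its 78 protein genes were lower and 6 higher (median -0.49). Mrps2 had 6.73 and 6.55 TPM at 4 h, against 39.9 and 42.5 TPM at 0 h (-2.46 ± 0.15). After scaling 12 were lower and 43 higher, against 34.5% and 37.1% of all genes. Its 6 higher calls were 3 without either KO 4 h library or KO 0 h replicate 1, and 1 without KO 0 h replicate 2.

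Making new ribosomes and making proteins were split from the ribosome itself. Of 54 nucleolar biogenesis genes 47 were lower and 1 higher (median -0.87), with Gnl3, nucleostemin, at 8.30 and 8.08 TPM at 4 h, against 94.4 and 97.6 TPM at 0 h (-3.40 ± 0.16). Of 65 translation factors 41 were lower and 6 higher (median -0.40), the steepest of the named being Eif1a, a factor of start codon scanning, at -2.91 ± 0.11. Of 38 aminoacyl-tRNA synthetases 32 were lower and 0 higher (median -0.46), with the mitochondrial Mars2 at -2.54 ± 0.17. After scaling, the translation factors had 6 lower and 42 higher and the synthetases 5 and 22, so both were lost more slowly than the typical gene. The 1 higher biogenesis gene was lost without KO 4 h replicate 1 or KO 0 h replicate 1.

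Lists of degradation and metabolism differed in their counts. Of 55 lysosome genes 20 were higher and 9 lower (median 0.08). Ctsd, the protease cathepsin D, had 3716 and 3646 TPM at 4 h, against 2887 and 2877 TPM at 0 h (0.35 ± 0.06), while Atp6v0a1, a proton pump subunit, changed by -1.03 ± 0.10. Of 47 proteasome genes 19 were lower and 2 higher (median -0.14), and of 24 glycolysis genes 11 were lower and 5 higher (median -0.09). Hk2, the inducible hexokinase, had 10.06 and 9.48 TPM at 4 h, against 56.0 and 53.4 TPM at 0 h (-2.37 ± 0.13). The glucose transporter Slc2a1 changed by -1.93 ± 0.14. Cholesterol genes had 20 of 26 lower and 0 higher (median -0.48), with the synthase Hmgcs1 at -2.65 ± 0.16 and the squalene epoxidase Sqle at -2.34 ± 0.16. The count of lower cholesterol genes was 13 without KO 4 h replicate 2, and that of higher proteasome genes was 1 without KO 4 h replicate 1 or KO 0 h replicate 1. After scaling to the typical gene the cholesterol list turned, with 6 lower and 15 higher. The proteasome then had 2 lower and 38 higher, glycolysis 5 and 18, and the lysosome 0 and 53.

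Of 36 cytosolic chaperone genes 21 were lower and 1 higher (median -0.32), and after scaling 10 were lower and 22 higher. Hspa8, the constitutive HSP70, was the largest of them in TPM, with 688.9 and 733.4 TPM at 4 h, against 3778 and 3669 TPM at 0 h (-2.39 ± 0.08). Dnajb1, its heat-inducible cochaperone, had 2.60 and 2.11 TPM at 4 h, against 32.8 and 33.6 TPM at 0 h (-3.35 ± 0.19). Of 36 genes of the unfolded protein and integrated stress response 19 were lower and 3 higher (median -0.25), and 11 and 22 after scaling. Xbp1, its spliced transcription factor, had 31.6 and 33.5 TPM at 4 h, against 280.4 and 274.4 TPM at 0 h (-3.05 ± 0.09). Its 3 higher calls were 1 without KO 4 h replicate 1 or either KO 0 h library.

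The remaining nuclear lists lay closer to the typical gene. Of 89 genes of Mediator, RNA polymerase II and the general factors 69 were lower and 3 higher (median -0.86), of 32 SR proteins and hnRNPs 27 and 0 (median -0.45), and of 33 karyopherins of nuclear import 25 and 0 (median -0.64). Of 20 snoRNA hosts and long noncoding RNAs 9 were lower and 2 higher (median -0.38). Higher calls were 1 in the first list without KO 4 h replicate 1, 1 in the third without KO 0 h replicate 1 and 1 in the last without KO 0 h replicate 2. After scaling, in the same order of lists, 33, 3, 11 and 3 genes were lower and 37, 25, 17 and 9 higher.

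Not all genes held as constant references behaved so. Of 33 long-lived housekeeping genes 16 were higher and 7 lower (median 0.12). The lower ones included the polyubiquitin gene Ubb, with 255.7 and 258.8 TPM at 4 h against 1283 and 1367 TPM at 0 h (-2.36 ± 0.07). The TATA-binding protein gene Tbp changed by -3.21 ± 0.23. Actb, β-actin, had 2821 and 2727 TPM at 4 h, against 4719 and 4691 TPM at 0 h (-0.76 ± 0.07), and 0.16 after median-ratio scaling. Clustered histones, many of whose messages lack a poly(A) tail, had 5 lower and 6 higher of 63 (median 0.11) and are uncertain for the near-identity of their copies.

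Myeloid granule and differentiation genes had calls in both directions. Of 13 genes on the azurophil granule list 3 were higher and 6 lower (median -0.15), and none was below the median gene. The largest change on that list, 0.81, was that of Igfbp7, described above as a secreted binder of insulin-like growth factors. Srgn, serglycin, the proteoglycan that packs granule proteins, had 2331 and 2285 TPM at 4 h, against 1623 and 1618 TPM at 0 h (0.51 ± 0.07). The 6 lower calls were 4 without KO 4 h replicate 2 and 3 without KO 0 h replicate 1. Of 39 genes of late neutrophils and monocytes 12 were lower and 9 higher (median 0.05). Fpr1, the formyl peptide receptor, had 1.52 and 1.94 TPM at 4 h, against 28.7 and 22.2 TPM at 0 h (-3.27 ± 0.17). Csf2rb, the common β chain of the IL-3 and GM-CSF receptors, had 209.4 and 194.1 TPM at 4 h, against 545.7 and 553.3 TPM at 0 h (-1.44 ± 0.07).

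Homing and adhesion genes had 20 of 48 lower and 4 higher (median -0.21), a smaller share lower than among all genes. The chemokine receptor Ccr1 had 16.1 and 16.1 TPM at 4 h, against 177.8 and 173.2 TPM at 0 h (-3.37 ± 0.09). Cxcr4 was given above, Ccr2 changed by -1.78 ± 0.10, and Itga5, the fibronectin receptor chain, by -2.57 ± 0.11. After scaling 10 were lower and 34 higher. Interferon-stimulated genes had 38 of 49 lower and 2 higher (median -0.90), among them Irgm1, an immunity-related GTPase, at -2.99 ± 0.19, and 1 of the 2 higher calls was left without KO 4 h replicate 1 or KO 0 h replicate 1.

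Some markers of other blood lineages were higher at 4 h. Of 12 tested erythroid and megakaryocyte markers 5 were higher and 0 lower (median 0.22). Pf4 had 105.7 and 98.7 TPM at 4 h, against 74.4 and 54.2 TPM at 0 h (0.68 ± 0.13), and Ppbp had 11.38 and 9.70 TPM at 4 h, against 5.97 and 5.41 TPM at 0 h (0.78 ± 0.17). The β-globin genes Hbb-bt and Hbb-b2 had identical values, 365.4 and 394.2 TPM at 4 h against 293.9 and 293.1 TPM at 0 h (0.37 ± 0.09). Each is uncertain as a near-identical paralog, and the 5 higher calls may count 1 globin signal more than once. The erythroid markers Alas2 and Slc4a1 were at 0 in all 4 libraries. Summed over 6 megakaryocyte markers the level was 162.9 and 149.9 TPM at 4 h, against 121.8 and 99.7 TPM at 0 h. Over 9 mast cell and basophil markers, 7 of which were at 1 TPM or more in both libraries of each time, it was 4430 and 4746 TPM at 4 h, against 3515 and 3331 TPM at 0 h. Of 15 genes on the wider mast cell list 4 were lower, such as Gata2 above and the IL-33 receptor Il1rl1 (-1.13 ± 0.09), and 4 higher. The part of such cells in the changes at 4 h was not tested.

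The change also differed between classes of transcript structure. The values are descriptions across genes, which are not independent replicates, from the transcript with the longest coding sequence of each of 10527 genes. Genes whose coding sequence has no exon junction had a median of -1.64 (584 genes, 81.0% lower), and those with above 0 but under 2 junctions per kb had -1.61 (759 genes). Between them and the junction-rich genes the medians went up in order, to -0.34 with 8 or more per kb (2425 genes, 52.5% lower). Spearman's rho between junctions per kb and the change was 0.42. Without the regulator, Zfp and histone lists the junction-free genes were at -1.73 (482 genes), and within transcripts of 1500 to 3000 nt at -1.64 (215 genes), against -0.33 with 8 or more per kb (964 genes). WT cells gave -1.50 and -0.48 for the same end classes.

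The junction-free class was also frequent among the steepest losses. Of 375 genes that fell at least 4-fold relative to the median gene 27.5% had no junction in the coding sequence, against 5.55% of all. Of the 14 most strongly lost coding genes 5 had none: Cited2, Irf2bp1, Arf6, Cebpb and Cebpa. Myc had 2 junctions and Nfkbia 5.

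Pentamer counts in the 3' UTR ran with the loss too. Genes with 0 ATTTA had a median of -0.43 (3733 genes), those with 1 or 2 had -0.71, those with 3 to 5 had -0.95 and those with 6 or more -1.12 (1523 genes). Since longer UTRs hold more of any motif, the same classes were read within UTRs of 500 to 1500 nt, where the medians were -0.59, -0.76, -0.94 and -0.95. Genes with the nonamer had -1.14 and those without it -0.68, but -0.97 and -0.71 within UTRs of 500 to 1500 nt. The Pumilio motif TGTANATA, searched on the mRNA strand only as were the others, was present in 23.1% of genes, with a median of -1.16 in those with it and -0.58 in those without it. Within UTRs of 500 to 1500 nt these were -1.05 and -0.65.

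Short transcripts were the class that gained. Those under 800 nt had a median of 0.17 (405 genes, 30.4% higher), and the medians fell with length to -1.16 at 4000 nt or more (3092 genes). Ribosomal protein and oxidative phosphorylation genes were 75 of the 405 and had 0.31, and the other 330 had 0.12. Of the 15 named gains 13 had a transcript under 1500 nt, against 0 of the 14 coding falls. A fit with a trend on length removed from all genes also brought every library to a common mean. In it 4463 of all genes were higher and 3073 lower. Of the ribosomal protein genes 70 were higher and 0 lower, and of the oxidative phosphorylation genes 52 and 0. These counts do not separate length from the common mean. By level, genes with 1000 TPM or more at 0 h had a median of 0.30 (139 genes, 77.0% higher), and those of 5 to under 20 TPM had -1.22. The 0 h level is also 1 side of the change, so these classes are no independent measure.

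**Figure D4:**
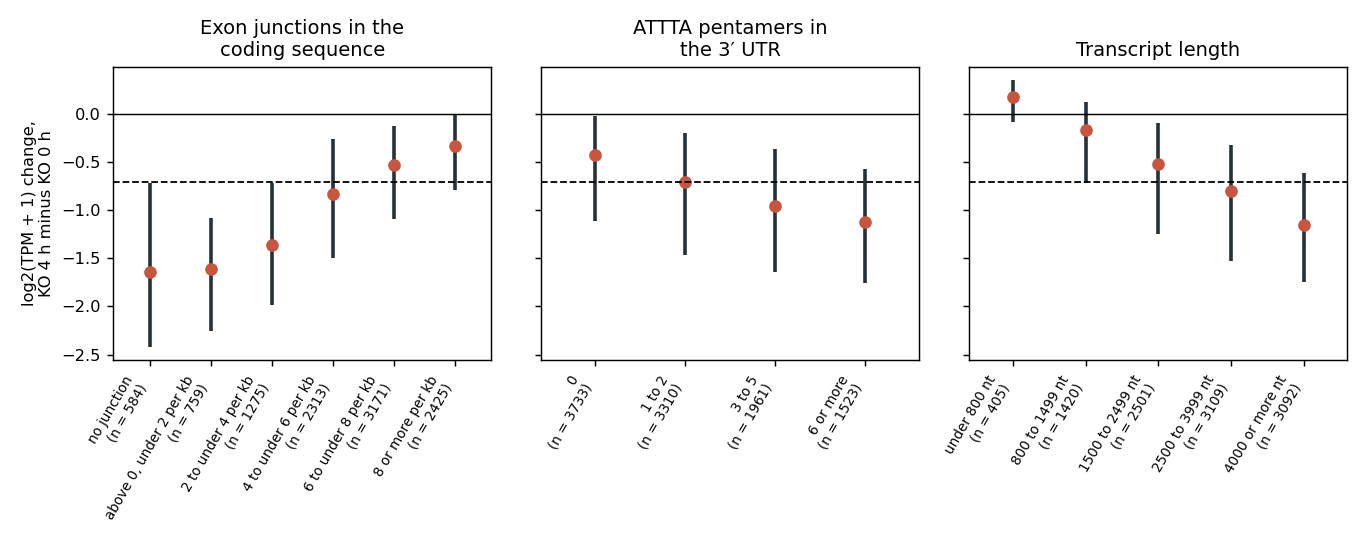
Median (red) and quartiles (dark bar) of the log2(TPM + 1) change, KO 4 h minus KO 0 h, by exon junctions per kb of coding sequence, by number of ATTTA pentamers in the 3' UTR and by transcript length, with the number of genes in each class. Medians go from -1.64 without junctions to -0.34 with 8 or more per kb, and from 0.17 under 800 nt to -1.16 at 4000 nt or more, with the median gene dashed.

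Most of the early loss was common to both genotypes. WT cells at 4 h had 8671 genes past the threshold (77.8% of all), 755 higher (6.77%) and 7916 lower (71%), around a median of -0.81, against -0.70 in KO cells. Across the 11152 genes the changes in KO and WT cells, which share no library, had a Pearson r of 0.924. Tested directly, as the KO change minus the WT change, 39 genes differed (0.35% of all), 33 with a lower change in KO cells (0.296%) and 6 with a higher one (0.0538%). At an unadjusted p of 0.05 there were 1763. Pseudocounts of 0.1 and 0.5 in place of 1 gave 26 and 28 genes, 3 of them higher in each. All of these were among the 39, so the calls of the rest depended on the added 1 TPM. With the libraries scaled to the typical gene 160 genes differed (1.43%), 28 higher (0.251%) and 132 lower (1.18%), and 38 of the 39 were among them with the same sign. Scaling to housekeeping genes turned the balance, with 519 higher and 117 lower of 636. Leaving out 1 library gave 12 and 13 genes (KO 4 h replicates 1 and 2), 10 and 10 (KO 0 h), 24 and 14 (WT 4 h) and 22 and 98 (WT 0 h), so the count depended on every library.

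Of the 33 genes with a lower change in KO cells 21 were below 0 in both genotypes, and several were signal-responsive regulators. Of the 31 immediate early factors 7 had a lower change in KO cells, against 0.296% of all genes, and 0 had a higher one. That list was chosen with earlier results of these data known, so its count is no independent support. Junb had 17.8 and 18.8 TPM in KO cells at 4 h and 146.5 and 148.6 TPM in KO cells at 0 h, while WT cells had 55.4 and 55.2 TPM at 4 h and 148.5 and 173.7 TPM at 0 h. The change was thus -2.94 in KO and -1.52 in WT cells, a difference of -1.42 ± 0.12 (adjusted p = 0.00060). The genotypes had started from similar levels and parted at 4 h. Id1 had 28.7 and 23.8 TPM in KO cells at 4 h and 263.8 and 273.9 TPM in KO cells at 0 h, while WT cells had 47.6 and 47.6 TPM at 4 h and 154.4 and 189.7 TPM at 0 h. Its difference was -1.49 ± 0.15 (adjusted p = 0.00120), with a higher start in KO cells. Cited2 kept 2.21% of its TPM in KO cells and 5.14% in WT cells, a difference of -1.14 ± 0.14 (adjusted p = 0.00742). These 3 and the noncoding Snhg20 kept their call in the 18 alternatives computed for single genes, among which the removal of a length trend was not computed.

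The other members of the group were less firm. Ier5, an immediate early regulator of stress responses, had 7.68 and 5.66 TPM in KO cells at 4 h and 27.0 and 27.0 TPM in KO cells at 0 h, while WT cells had 17.4 and 21.2 TPM at 4 h and 24.9 and 29.8 TPM at 0 h (difference -1.40 ± 0.21). Socs1, a feedback inhibitor of JAK kinases, kept 6.72% of its 0 h TPM in KO and 26.0% in WT cells (-1.83 ± 0.30). Ddit4, a stress-induced inhibitor of mTORC1, kept 11.6% in KO and 35.5% in WT cells (-1.46 ± 0.20). Both started higher in KO cells. At 0 h Socs1 had 53.6 and 46.9 TPM in KO and 19.5 and 23.3 TPM in WT cells, and at 4 h 2.32 and 4.43 against 5.44 and 5.68 TPM. Ddit4 had 33.4 and 41.8 TPM in KO and 19.1 and 22.5 TPM in WT cells at 0 h, and 3.95 and 4.81 against 7.57 and 7.20 TPM at 4 h. The early gene Ier2 differed by -1.02 ± 0.15, the small Maf factor Mafk by -1.12 ± 0.18 and the AP-1 subunit Jun by -0.86 ± 0.16. The AU-rich element binders Zfp36 (-0.98 ± 0.15) and Zfp36l2 (-0.76 ± 0.14), and the named falls Nfkbia (-0.997 ± 0.182) and Slfn2 (-0.99 ± 0.17) completed them. None of these 10 changed sign when a library was left out, but each call was lost in 3 to 7 of the 8 such fits. The fit without WT 0 h replicate 2 kept all of them except Nfkbia, which held without KO 4 h replicate 1 alone. Ddit4 was lost without KO 4 h replicate 1, KO 0 h replicate 2 or WT 0 h replicate 1 (adjusted p up to 0.0666), and the highest adjusted p of the 10 was 0.196, in Nfkbia.

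Of the 6 genes with a higher change in KO cells 2 had enough TPM to be named. Znfx1, a helicase of antiviral responses, had 15.1 and 13.7 TPM in KO cells at 4 h and 42.2 and 40.7 TPM in KO cells at 0 h, while WT cells had 4.83 and 4.49 TPM at 4 h and 30.9 and 35.6 TPM at 0 h (difference 1.13 ± 0.16, adjusted p = 0.0123). Hspa8 kept 19.1% of its TPM in KO and 11.8% in WT cells (0.69 ± 0.11, adjusted p = 0.0201). Both calls were lost without KO 4 h replicate 1, KO 0 h replicate 1, KO 0 h replicate 2 or WT 4 h replicate 2, and that of Hspa8 also without KO 4 h replicate 2 (adjusted p up to 0.0681 for Znfx1 and 0.0942 for Hspa8). Cxcr4 had a change of -3.50 in KO and -2.95 in WT cells, and that difference of -0.54 ± 0.20 did not pass (adjusted p = 0.228). Nor did those of Tet2 (-0.21 ± 0.18), Tspan13 (0.06 ± 0.29) or Ybx1 (-0.30 ± 0.12).

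**Figure D5:**
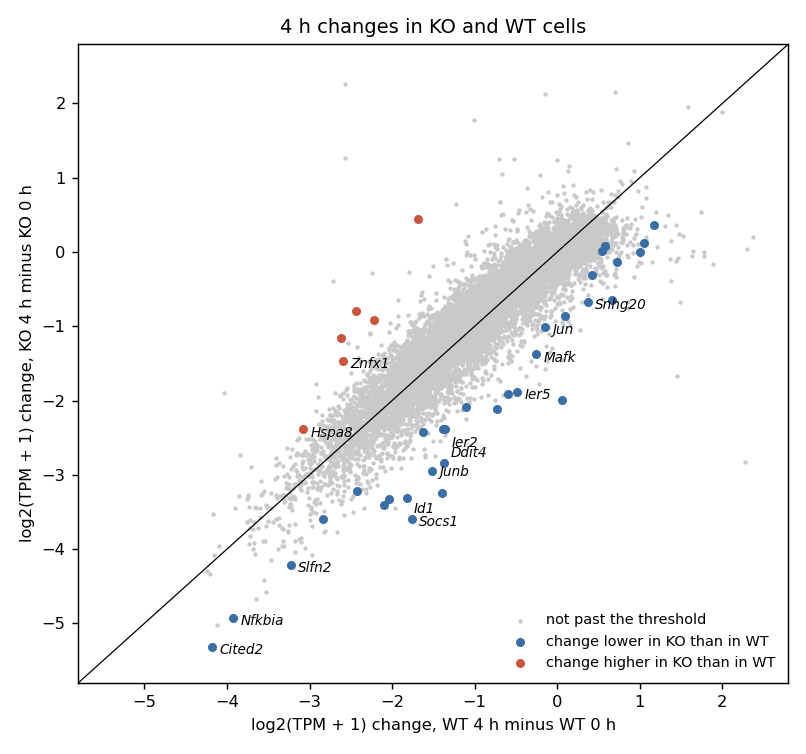
Log2(TPM + 1) change of each gene at 4 h against 0 h in KO cells (vertical axis) and WT cells (horizontal axis), with the line of equal change. Genes whose changes differed past the threshold are blue (33, lower in KO) or red (6, higher in KO), and Cited2, Nfkbia, Socs1, Id1 and Junb lie below the line.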

How the data were processed

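RNA-seq of 12 libraries, 2 in each of 6 groups, was analysed from a deposited table of TPM per gene made by the authors. STAR, RSEM and mm10 appear in the submitters' processing notes, and per the labels' protocols the kit was a stranded mRNA kit. Tool versions, the annotation and the strand option were not given in the sources used here. Of 24589 genes, the 11152 with at least 1 TPM in at least 2 of the 12 libraries were tested. limma 3.58.1 in R 4.3.3 was fitted to log2(TPM + 1), which understates changes of low genes, with a mean for each of the 6 groups, which leaves 6 residual degrees of freedom, and a trended empirical Bayes spread. Adjusted p are two-sided Benjamini-Hochberg values over all tested genes with a threshold of 0.05, and errors are SE. The fit was also run on simulated data in which a small set of genes was shifted in KO 4 h. That simulation held no loss shared by most genes, so it does not bear on calls under such a loss. Median-ratio scaling used the 11125 genes above 0 in all libraries. The difference of changes was KO 4 h minus 0 h, minus the same in WT.

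The genes named were the study genes Tet2, Cxcr4, Tspan13 and Ybx1, the 15 largest falls and rises past the threshold with at least 10 TPM on average in the higher group and no overlap of libraries, the 5 largest differences each way (2 met the rule on the higher side), and list members from the 4 with the smallest p. Maff, Fosb and the genes named for their transcript features or as immediate early or AU-rich binding members with a difference between genotypes were chosen after their values were seen. The comparison and the gene lists were chosen with earlier results of these data known. Transcripts came from GENCODE M21 by symbol, with a coding transcript for 94.4% of tested genes. The replicate numbers did not pair the libraries. Alternatives were other pseudocounts, filters, scalings and fits, a replicate block and each library left out. Deviations of same-numbered libraries from their group means correlated at -0.08 to 0.05. The genes of a few results, 1 of the 15 largest falls among them, are not reported here.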

Additional observations from a re-analysis of the deposited data

Results flagged for a closer look

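The change at 4 h differed between KO and WT cells, by a test of that difference, in 39 genes. Among those described, the KO change minus the WT change was -1.83 in Socs1, -1.49 in Id1, -1.46 in Ddit4, -1.42 in Junb and -1.40 in Ier5. It was -1.14 in Cited2, -1.12 in Mafk, -1.04 in the noncoding host RNA Snhg20, -1.02 in Ier2 and -0.997 in Nfkbia. Slfn2 had -0.99, Zfp36 -0.98, Jun -0.86 and Zfp36l2 -0.76. The opposite sign was seen in Znfx1, at 1.13, and Hspa8, at 0.69. Of these 16 genes 4, namely Cited2, Id1, Junb and Snhg20, were called in the 18 alternatives computed for single genes, which do not include the removal of a length trend.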

How the results depend on the processing

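The median change of all genes in KO cells was -0.70, and -0.84 and -0.77 with pseudocounts of 0.1 and 0.5, -0.33 with no filter, -0.62 with a mean of at least 5 TPM, -0.53 after housekeeping scaling, 0.049 after median-ratio scaling by construction, and -0.72 to -0.70 with 1 library left out. The count of 8123 genes was 4344 with an added limit of 2-fold, 7339 to 7413 with 1 library left out, and within 1.5 times under the other alternatives. The split of higher and lower calls was 1315 and 6670 after housekeeping scaling and 4463 and 3073 with a trend on transcript length removed, an alternative added after seeing the data. The scaled count of 7987 was 2762 with the 2-fold limit. The 39 differences between genotypes were 160 after median-ratio scaling, 636 (519 higher, 117 lower) after housekeeping scaling, 93 with only the compared groups, 22 with the 2-fold limit, 386 (154 higher, 232 lower) with the length trend removed, and 10 to 98 with 1 library left out. Pseudocounts of 0.1 and 0.5 gave 26 (3 higher, 23 lower) and 28 (3 higher, 25 lower) such differences. The causes were not tested. After median-ratio scaling the sign turned in Actb (0.16), Atp6v1b2 (0.17), Nkg7 (0.58), Psmd11 (0.14), Serpinb1a (0.64), Snhg20 (0.21) and Tet2 (0.16), and Tspan13 had -0.0286 without KO 4 h replicate 1. With the replicate number as a block, 8080 genes passed in KO cells, 7927 after scaling, and 40 in the difference, where Nfkbia lost its call. Depth is unknown, which leaves the precision of low genes to the 2 libraries of each group.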
